A study of Mus musculus with 16 samples.

Results

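The 9 genes described here are the 3 mammalian TGF-beta ligands (Tgfb1, Tgfb2 and Tgfb3) and 6 effector genes of tissue fibrosis (Fn1, Eln, Lox, Postn, Tnc and Ccn2). They were taken by gene symbol from a table of 56748 genes, with earlier results of these data known. All 9 passed the filter on low counts in every comparison. RNA came from the longitudinal muscle with its attached myenteric plexus (LMMP) of the mouse colon, in 16 libraries. The 4 groups held 4 libraries each: WT (Ednrb+/+) proximal, HSCR (Ednrb-/-) proximal, WT distal and HSCR distal. HSCR mice were homozygous for the Ednrb tm1Ywa allele on a hybrid C57BL6/J-129Sv background, a germline disruption of the endothelin B receptor that leaves the distal colon without ganglia and is used as a model of Hirschsprung disease (HSCR). WT mice were littermates without the allele. By the methods of the study, the mice were 2 to 4 weeks old, and the proximal segment of HSCR mice was the distended, ganglionated part. The replicate labels do not say which libraries came from one mouse, so p-values measure the spread between these libraries only.

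TGF-beta is secreted in a latent form that is held in the extracellular matrix (ECM) and must be released before it binds its type I and type II receptors. The receptors phosphorylate Smad2 and Smad3, which enter the nucleus with Smad4 and switch on matrix genes. In the muscle wall of the gut, sustained signaling of this kind is known to drive fibroblasts and smooth muscle cells to deposit fibronectin, collagen and elastin. Lysyl oxidase then cross-links collagen and elastin, and matricellular proteins such as periostin, tenascin C and CCN2 tune the adhesion of cells to the matrix.

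The start regions of 3 of these genes are shown because Tgfb2 was the only one of the 9 genes whose WT and HSCR proximal libraries did not overlap in TMM-scaled level, and because Postn and Tnc had the most similar levels over the 16 libraries. RefSeq promoters on GRCm38.p6 matched 4 of the 9 genes (Tgfb1, Tgfb2, Postn and Tnc). Each line below holds the 250 bases upstream of an annotated start, 5′ to 3′ on the strand of the gene. Capitals mark TATAAA, the core of a TATA box, and CAGACA, a motif that holds the Smad-binding core, on either strand (TGTCTG on the other strand).
Tgfb2, chr1:186705990-186706239, minus strand: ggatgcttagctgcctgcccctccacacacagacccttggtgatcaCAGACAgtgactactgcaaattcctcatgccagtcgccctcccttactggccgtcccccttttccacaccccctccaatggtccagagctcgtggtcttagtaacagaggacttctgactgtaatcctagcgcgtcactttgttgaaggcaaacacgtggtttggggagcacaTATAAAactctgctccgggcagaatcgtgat
Postn, second start, chr3:54360857-54361106, plus strand: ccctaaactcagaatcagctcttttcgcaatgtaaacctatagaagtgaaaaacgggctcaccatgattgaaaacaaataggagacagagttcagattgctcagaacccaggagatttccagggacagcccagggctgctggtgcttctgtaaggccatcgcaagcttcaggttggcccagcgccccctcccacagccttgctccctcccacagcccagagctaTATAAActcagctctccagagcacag
Tnc, start nearer the gene body, chr4:64046937-64047186, minus strand: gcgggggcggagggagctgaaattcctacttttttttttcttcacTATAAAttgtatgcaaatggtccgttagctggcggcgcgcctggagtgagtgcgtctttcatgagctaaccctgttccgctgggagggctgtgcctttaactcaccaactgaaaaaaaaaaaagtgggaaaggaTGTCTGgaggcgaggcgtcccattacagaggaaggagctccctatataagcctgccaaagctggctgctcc

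Counted from the start, TATAAA lay at bases -31 to -26 in Tgfb2, -26 to -21 in Postn and -205 to -200 in Tnc. The Tnc window also holds tatataag, much nearer its start. It does not match TATAAA and is not marked, since other forms of the TATA box were not searched. CAGACA lay at -204 to -199 in Tgfb2 and, as TGTCTG, at -71 to -66 in Tnc, and the Postn window held none. Of 32851 such 250-base windows of all genes, 12.4% held TATAAA and 17.1% held CAGACA on either strand, so both are common. GGAATG, the core bound by TEAD factors, was also searched on both strands, was in none of the 3 windows and was in 12.6% of all windows. A match is a description of the letters in the window and not of binding.

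The libraries held between 21384372 and 45831881 counted reads. Levels are given as CPM, counts relative to the total of the library, scaled by TMM factors over all 16 libraries, and each gene is compared with itself across libraries. The mitochondrial share was 49.8% in WT proximal library 1 and 34.6% in WT proximal library 4, against 4.32% in WT distal library 4. Ednrb itself was at 67.7, 33.9, 64.2 and 53.0 CPM in WT proximal libraries 1 to 4 and at 7.84, 12.6, 36.2 and 35.8 CPM in the HSCR proximal libraries. In the distal colon it was at 12.2, 16.1, 28.3 and 40.2 CPM in WT and at 96.9, 5.55, 5.82 and 9.56 CPM in HSCR. The library labelled HSCR distal 1 therefore had the highest Ednrb level of all 16, against its genotype label. The counts cover the whole gene, and the disrupted part was not looked at alone.

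Libraries also differed in the cells they held. Enteric neuron markers (11 genes) summed to 83.5 CPM in the library labelled HSCR proximal 1, where ganglia are present, and to 1328 CPM in the library labelled HSCR distal 1, where they should be absent. The other 3 HSCR distal libraries lay between 21.3 and 91.7 CPM. The neuron sum was also low in HSCR proximal library 2 (132 CPM) and in WT distal library 1 (98.6 CPM), which had an Ednrb level of 12.2 CPM. The label of HSCR distal 1 is therefore in doubt, and an exchange of segment and an exchange of genotype with another library numbered 1 cannot be told apart. HSCR proximal library 2 held the lowest sum of 10 smooth muscle markers (4741 CPM, against 31214 to 97235 CPM in the other proximal libraries) and the highest sum of 12 epithelial markers (14971 CPM). It also had the lowest sum of 10 fibroblast markers (1790 CPM), none of which is among the 9 genes. Marker sums by library are shown in the plot of cell type markers. In bulk tissue, fewer cells of a type and less RNA per cell cannot be told apart.

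**Figure D1:**
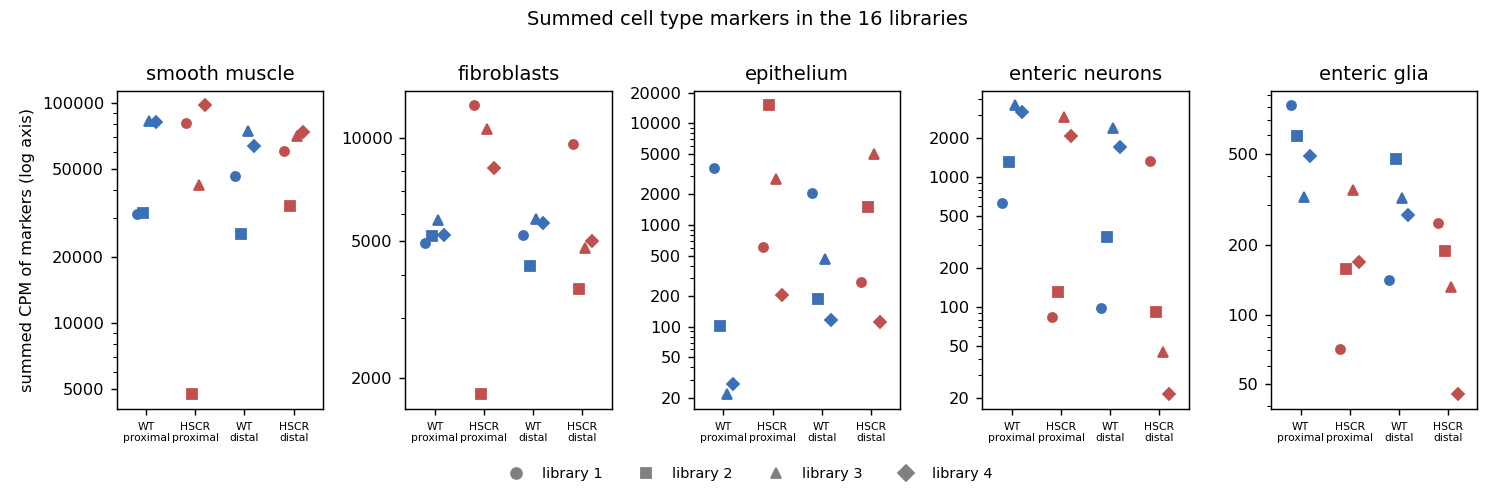
Summed CPM (log axis) of markers of smooth muscle, fibroblasts, epithelium, enteric neurons and enteric glia in each library, by group, with WT in blue, HSCR in red and the library number as the symbol. HSCR proximal library 2 sat lowest for smooth muscle at 4741 CPM and highest for epithelium at 14971 CPM.

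Per unit of gene length, the group means of Fn1, Eln, Postn, Tnc and Ccn2 were above those of the ligands in all 4 groups. Single libraries did not all follow this. In WT distal library 2, Fn1 (32.0 FPKM), Tnc (6.07 FPKM) and Ccn2 (4.10 FPKM) were below Tgfb3 (40.8 FPKM). In the authors' FPKM values, which divide counts by gene length, Eln had the highest mean of the 9 genes in WT proximal colon at 150.1 ± 19.4 FPKM (SD, n = 4), followed by Fn1 at 137 ± 77.6 and Postn at 114 ± 19.8. Ccn2 followed at 64.5 ± 29.3 FPKM and Tnc at 56.9 ± 19.5 FPKM. The ligands Tgfb2 and Tgfb3 were at 17.3 ± 2.66 and 16.2 ± 3.56 FPKM, and Tgfb1 was lowest of the 9 at 7.39 ± 2.56 FPKM. Lox, the enzyme, was at 9.31 ± 2.75 FPKM, within the spread of Tgfb1. For every one of the 9 genes, the ranges of neighboring groups in the order of group means overlapped.

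The question of the proximal comparison was how the ganglionated colon of HSCR mice differs from that of WT mice. The mean CPM of Tgfb2 was lower in HSCR proximal colon and that of Fn1 and Lox was higher, but no gene passed the edgeR quasi-likelihood test after Benjamini-Hochberg adjustment. Of the 9 genes, 0 were called at an adjusted p under 0.05 (0.0% of 16664 genes tested), and 0 at an unadjusted p under 0.05 (6.62% of all genes). DESeq2 and limma-voom also called 0 of the 9. RUVr with 4 factors of hidden variation called 3 of the 9 (Tgfb2, Lox and Ccn2) in a fit that called 21.4% of all genes. The 9 genes had a median log2 fold change of 0.15, against 0.04 over all genes tested.

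**Figure D2:**
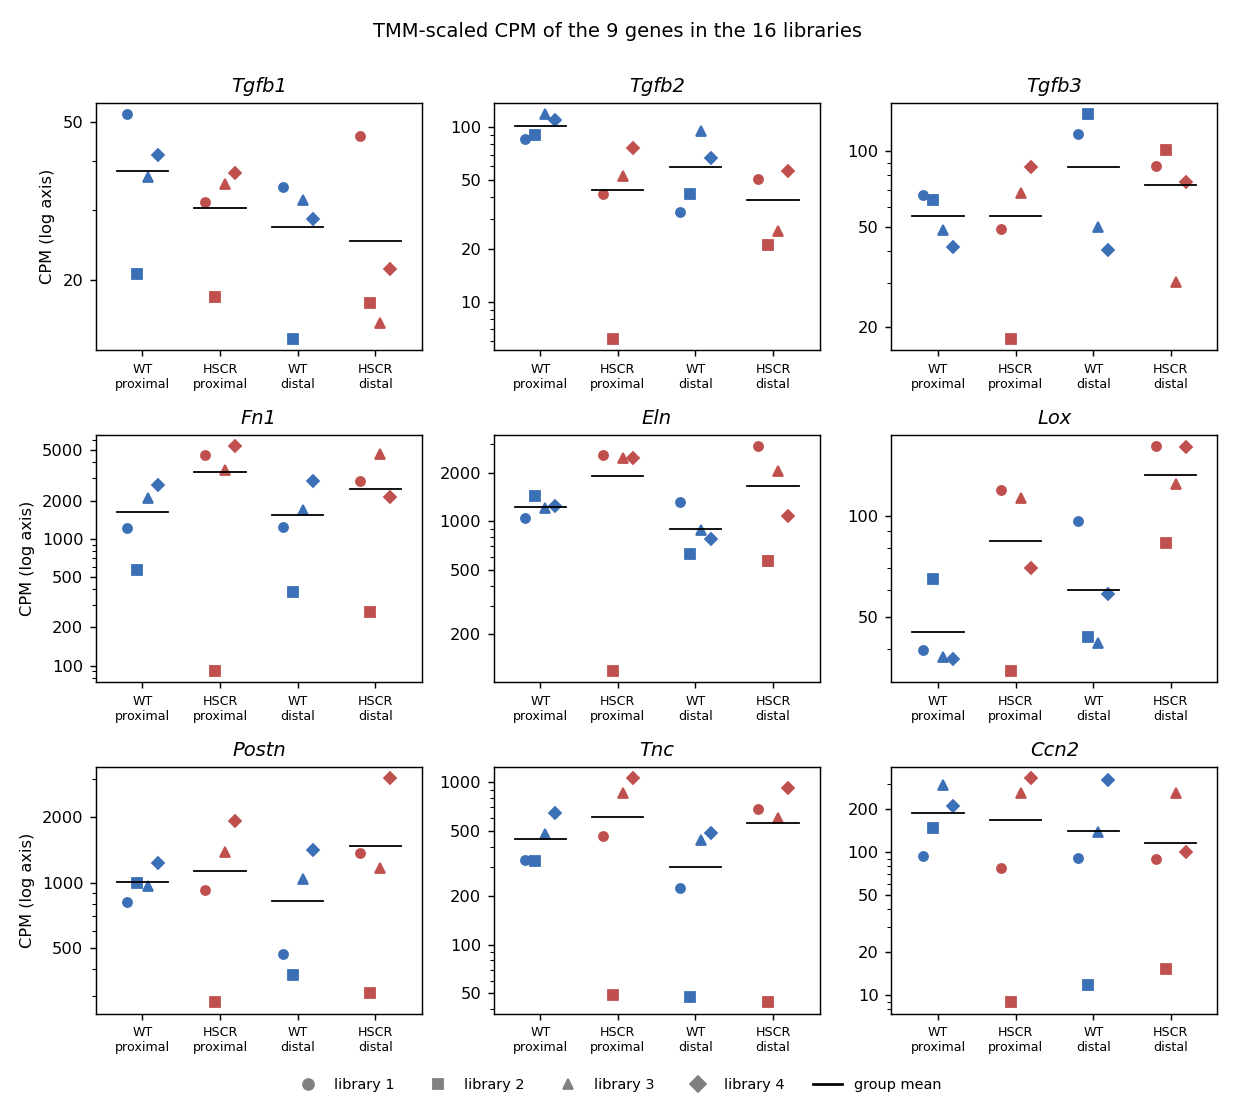
TMM-scaled CPM (log axis) of each of the 9 genes in the 16 libraries, by group, with WT in blue, HSCR in red, the library number as the symbol and the black line as the mean of 4 libraries. Tgfb2 in HSCR proximal libraries (6.14 to 76.1 CPM) lay below the WT proximal libraries (85.4 to 119 CPM), and squares, the libraries numbered 2, were often lowest.

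Tgfb2 (ENSMUSG00000039239, mm39 chromosome 1, 186354989 to 186438186, minus strand) encodes the ligand that needs the co-receptor betaglycan for high-affinity binding. Its level in WT proximal libraries 1 to 4 was 85.4, 91.1, 119 and 110.0 CPM. In HSCR proximal libraries it was 41.3, 6.14, 52.7 and 76.1 CPM. Every HSCR library was below every WT library, which held for 1 of the 9 genes and for 2.85% of all genes tested in that direction (4.85% in either direction). The mean log2 CPM differed by -1.66, and an exact two-sided permutation test gave p = 0.0286, the smallest that 4 against 4 libraries allow, and 0.971 after adjustment over the 36 such tests of the 9 genes in 4 comparisons. In edgeR's quasi-likelihood test the log2 fold change was -1.22 (SE 0.60, adjusted p = 0.752). With CPM of all counted reads in place of TMM-scaled CPM, the difference was -1.40, the exact permutation p was 0.0857, and the groups overlapped. With CPM of all counted reads except those of mitochondrial genes, the difference was -1.75. The libraries numbered 1 and 2 carry 1 kind of name in the table and those numbered 3 and 4 other kinds, and the difference was -2.47 within numbers 1 and 2 and -0.85 within numbers 3 and 4.

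The sums of neuron and glia markers had lower ranges in HSCR proximal libraries, as Tgfb2 did. Neuron markers summed to 630 to 3553 CPM in WT and 83.5 to 2876 CPM in HSCR proximal libraries. Glia markers (6 genes) summed to 324 to 810.5 CPM in WT and 71.2 to 347 CPM in HSCR. Of the 11 neuron markers, 10 had a negative log2 fold change and 5 had an unadjusted p under 0.05 in edgeR. Of the 6 glia markers, 5 had an unadjusted p under 0.05. Among all genes tested, 6.62% had an unadjusted p under 0.05 and 53.2% had a positive log2 fold change. An adjusted p under 0.05 was held by 0 of these markers. Within WT proximal libraries 1 to 4 the glia sum was 810.5, 596, 324 and 487 CPM, the reverse of the order of Tgfb2. The neuron sum in the same libraries was 630, 1307, 3553 and 3185 CPM, the same order as Tgfb2. In HSCR proximal libraries 1 to 4 it was 83.5, 132, 2876 and 2076 CPM, which was not the order of Tgfb2. The neuron sum and Tgfb2 had the same order in WT distal but not in HSCR distal libraries. There library 4 had the highest Tgfb2 level (56.6 CPM) and the lowest neuron sum (21.3 CPM). The reverse order of the glia sum was not seen in the other groups. The part of neurons and glia in the level of Tgfb2 was not tested. The genes most like Tgfb2 over the 16 libraries were Fbxl16, Agtpbp1 and Hand2, a transcription factor of the enteric nervous system and the gut mesenchyme, with Pearson r of 0.96, 0.95 and 0.94 of log2 CPM among 18618 genes.

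The other ligands showed no separation of genotypes. Tgfb1 (ENSMUSG00000002603, chromosome 7, 25386427 to 25404502), the main ligand of fibrosis, was at 52.3, 20.7, 36.4 and 41.2 CPM in WT and at 31.5, 18.1, 34.8 and 37.2 CPM in HSCR proximal libraries. Its log2 fold change was -0.33 (SE 0.35, adjusted p = 0.859 in edgeR). Tgfb3 (ENSMUSG00000021253, chromosome 12, 86103519 to 86125815), which is often set against Tgfb1 in scarring, was between 41.5 and 66.9 CPM in WT and between 18.0 and 86.1 CPM in HSCR, so the HSCR range enclosed the WT range. Its log2 fold change was -0.01 (SE 0.44).

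Lox (ENSMUSG00000024529, chromosome 18, minus strand) encodes lysyl oxidase, which cross-links collagen and elastin. It was at 39.7, 64.6, 38.0 and 37.5 CPM in WT proximal libraries. It was at 119.7, 34.5, 113 and 69.7 CPM in HSCR proximal libraries, so 3 of the 4 HSCR libraries were above every WT library and HSCR library 2 was below them all. The log2 fold change was 0.89 (SE 0.41, adjusted p = 0.748 in edgeR), and the exact permutation p was 0.229. Within numbers 1 and 2 and within numbers 3 and 4 the difference in mean log2 CPM was 0.34 and 1.23. The summed fibroblast markers put the HSCR proximal libraries in the same order as Lox, at 12456, 1790, 10599.8 and 8209 CPM in libraries 1 to 4. In the WT proximal libraries the sum lay between 4957 and 5779.8 CPM, and the order was not that of Lox. The same 3 HSCR libraries were thus above every WT library for fibroblast markers, for Lox and for Fn1 and Eln. Among them was HSCR proximal library 1, with the low neuron sum of 83.5 CPM. Without that library the log2 fold change was 0.67 for Lox and 0.45 for Eln in edgeR. Of the 10 fibroblast markers, 8 had a positive and 2 a negative log2 fold change, against 53.2% positive among all genes tested. An adjusted p under 0.05 was held by 0 of them. The 1 marker with an unadjusted p under 0.05 in edgeR was Dpt, which was lower in HSCR (log2 fold change -0.96). The list also holds the collagen genes Col1a1 (0.84) and Col1a2 (0.66), so its sum does not measure fibroblast content alone. The part of fibroblasts in the levels of Lox, Fn1 and Eln was not tested.

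Fn1 (ENSMUSG00000026193, chromosome 1, 71624679 to 71692359) encodes fibronectin, the glycoprotein on which much of the matrix is assembled. It was at 1207, 564, 2086 and 2629 CPM in WT and at 4549, 91.4, 3497 and 5372 CPM in HSCR proximal libraries. As with Lox, 3 HSCR libraries exceeded every WT library and HSCR library 2 was the lowest of all 8. The log2 fold change was 1.03 (SE 0.96, adjusted p = 0.836 in edgeR), an error almost as large as the change.

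Eln (ENSMUSG00000029675, chromosome 5, 134731447 to 134776177) encodes tropoelastin, the precursor of the elastic fiber. Its WT proximal libraries were close together at 1047, 1424, 1202 and 1239 CPM. The HSCR proximal libraries were at 2555, 119, 2464 and 2468 CPM, with 3 of 4 nearly equal and above all WT libraries, and library 2 far below. The log2 fold change was 0.61 (SE 0.74, adjusted p = 0.873 in edgeR).

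The 3 matricellular genes overlapped between genotypes. Postn (ENSMUSG00000027750, chromosome 3, 54268530 to 54298458), periostin, ranged from 818 to 1234 CPM in WT and from 282 to 1919.8 CPM in HSCR proximal libraries. Tnc (ENSMUSG00000028364, chromosome 4, 63878022 to 63965252), tenascin C, ranged from 327 to 649 CPM and from 49.1 to 1065 CPM. Ccn2 (ENSMUSG00000019997, chromosome 10, 24471340 to 24474581), connective tissue growth factor and a direct target of TGF-beta and YAP signaling, ranged from 94.0 to 293 CPM and from 8.95 to 331 CPM. Their log2 fold changes were 0.15 (SE 0.53), 0.43 (SE 0.74) and -0.17 (SE 0.86). For Eln, Postn and Tnc the mean log2 CPM differed in the opposite direction to the fitted fold change, by -0.07, -0.12 and -0.17, so their direction in the proximal colon rested on the scale of the average.

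HSCR proximal library 2 was the lowest of its group for 9 of the 9 genes. It was singled out after these values were seen, and leaving it out raises the HSCR mean of each gene by construction, so the next values are a description. Without it, 4 of the 9 genes had an unadjusted p under 0.05 in edgeR, against 7.54% of 17155 genes tested, and still 0 had an adjusted p under 0.05. Those were Tgfb2 at a log2 fold change of -0.85 (SE 0.27), Fn1 at 1.44 (SE 0.52), Eln at 1.01 (SE 0.25) and Lox at 1.15 (SE 0.28). Their unadjusted p-values in edgeR were 0.0130, 0.0225, 0.00361 and 0.00321, and their adjusted p-values were between 0.459 and 0.600. Leaving out the libraries numbered 2 in both groups also gave 4 of 9 (9.28% of all genes). Tgfb3 and Ccn2 changed sign without HSCR proximal library 2, to 0.29 (SE 0.27) and 0.23 (SE 0.53).

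**Figure D3:**
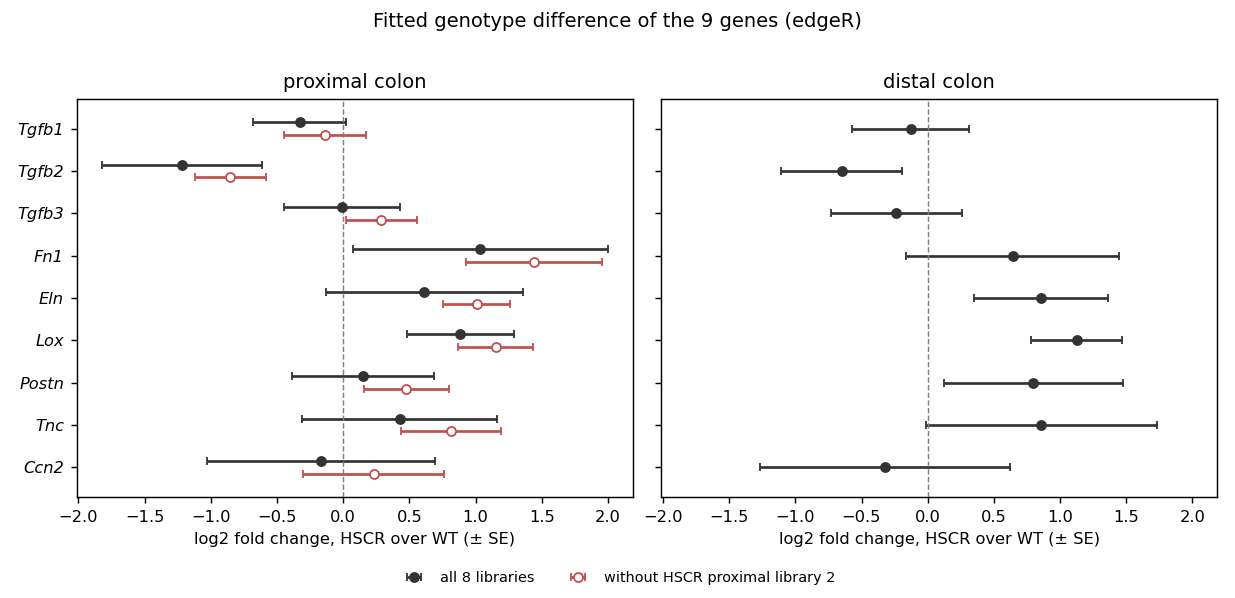
Fitted log2 fold change of each gene, HSCR over WT, with its SE as the bar, in the proximal colon (left) and the distal colon (right), from edgeR with 8 libraries in black and, for the proximal colon, without HSCR proximal library 2 in open red symbols. Lox was above 0 in all 3 fits (0.89, 1.15 and 1.12) and Tgfb2 below 0 where shown (-1.22, -0.85 and -0.65).

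In the distal colon, where HSCR mice lack ganglia, the gene with the smallest p among the 9 was Lox. Of the 9 genes, 0 were called at an adjusted p under 0.05 in edgeR (0.0% of 17059 genes), by DESeq2 or by limma-voom, and 1 (Lox) had an unadjusted p under 0.05, against 2.64% of all genes and 0.879% in the higher direction. RUVr with 4 factors called Eln, Lox and Tnc in a fit that called 9.64% of all genes. The groups overlapped for all 9 genes, and 1.83% of all genes tested did not overlap. The median log2 fold change of the 9 was 0.64, against 0.04 over all genes.

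Lox was at 96.8, 43.3, 41.7 and 58.4 CPM in WT distal libraries 1 to 4. In HSCR distal libraries it was at 161, 83.1, 124 and 161 CPM, and only WT library 1 exceeded the lowest HSCR library. The log2 fold change was 1.12 (SE 0.35), with an unadjusted p under 0.05 and an adjusted p = 1.00 in edgeR. The exact permutation p was 0.0571 with TMM-scaled CPM and 0.0286 with CPM of all counted reads, the smallest that these groups allow. The difference in mean log2 CPM was 0.84 within numbers 1 and 2 and 1.52 within numbers 3 and 4. Without the library labelled HSCR distal 1 the log2 fold change was 1.01, and without WT distal library 1 it was 1.42. Fibroblast markers summed to between 4249.7 and 5807 CPM in WT and between 3644 and 9617 CPM in HSCR distal libraries, and their part in the level of Lox was not tested.

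The other effectors had wide HSCR ranges in the distal colon. Eln was at 1314, 623, 883 and 775 CPM in WT and at 2920.1, 571, 2034 and 1082 CPM in HSCR distal libraries, with a log2 fold change of 0.86 (SE 0.50), which was 0.41 without the library labelled HSCR distal 1. Fn1 was at 1229.5, 379, 1695 and 2858 CPM in WT and at 2875, 264, 4640.5 and 2149 CPM in HSCR distal libraries, with a log2 fold change of 0.64 (SE 0.80). For both genes the lowest value of each group was in the library numbered 2. Postn ranged from 375 to 1412 CPM in WT and from 312 to 3031 CPM in HSCR. Tnc ranged from 47.8 to 489.8 CPM in WT and from 44.1 to 919 CPM in HSCR. The log2 fold change was 0.80 (SE 0.68) for Postn and 0.86 (SE 0.87) for Tnc, and Ccn2 was at -0.32 (SE 0.94).

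The distal ligands overlapped as well. Tgfb2 was at 32.7, 41.4, 95.7 and 66.7 CPM in WT and at 50.9, 21.3, 25.4 and 56.6 CPM in HSCR distal libraries. Its log2 fold change was -0.65 (SE 0.46, adjusted p = 1.00 in edgeR). Tgfb1 and Tgfb3 had log2 fold changes of -0.13 (SE 0.44) and -0.24 (SE 0.49). Tgfb1 was highest in the library labelled HSCR distal 1 at 46.1 CPM, the one with a high Ednrb level and high neuron markers, and the other 3 HSCR distal libraries lay between 15.6 and 21.4 CPM.

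The genotype difference itself was compared between segments by an interaction term over all 16 libraries. None of the 9 genes passed (0 of 9 in edgeR, 0.0% of 18619 genes, and 0 at an unadjusted p under 0.05 against 1.44% of all genes). DESeq2 and limma-voom called 0 of the 9 as well. The interaction was 0.58 (SE 0.78) for Tgfb2, which had the smallest p of the 9 (adjusted p = 1.00 in edgeR), and 0.24 (SE 0.55) for Lox.

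The segments of the WT colon were compared with the same libraries as above. Of the 9 genes, 0 were called at an adjusted p under 0.05 in edgeR (0.0181% of 16566 genes) and 0 at an unadjusted p under 0.05 (5.23%), and DESeq2 and limma-voom called 0. RUVr called Tgfb2, Tnc and Ccn2, all lower in the distal colon, in a fit that called 19.8% of all genes. Tgfb2 had a log2 fold change of -0.75 for distal over proximal (SE 0.34, adjusted p = 0.906 in edgeR) and Tgfb3 one of 0.68 (SE 0.41, adjusted p = 0.917 in edgeR). The values of Tgfb3 were 66.9, 63.9, 48.8 and 41.5 CPM in WT proximal and 117, 139.8, 50.2 and 40.4 CPM in WT distal libraries. Of the WT distal libraries, only those numbered 1 and 2 were above every WT proximal library. Groups overlapped for all 9 genes, against 4.38% of all genes that did not. In the HSCR colon the segments also overlapped for all 9, against 1.32% of all genes that did not. There 0 of the 9 were called in edgeR (0.0% of 17086 genes) and 0 had an unadjusted p under 0.05 (1.49%), with 0 called by DESeq2 and limma-voom, and Lox had a log2 fold change of 0.63 for distal over proximal (SE 0.43).

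Across the 16 libraries, Pearson r of log2 CPM was 0.94 for Postn with Tnc, 0.90 for Fn1 with Tnc, 0.90 for Tnc with Ccn2 and 0.86 for Fn1 with Eln. Lox had lower values with the other effectors, from 0.17 with Ccn2 to 0.59 with Eln. Of the ligands, Tgfb2 had values from 0.58 to 0.70 with Fn1, Eln, Postn, Tnc and Ccn2, and -0.13 with Lox, which was 0.48 once group means were taken off. Tgfb3 had values from -0.11 with Ccn2 to 0.37 with Eln. These values describe 16 libraries that share groups and the low level of the libraries numbered 2, which were the lowest of their group for 7 of the 9 genes in HSCR distal, 6 in WT distal and 3 in WT proximal colon. The genes most like Fn1 were Col4a1 and Col4a2, chains of basement membrane collagen (both r = 0.96), and the one most like Eln was Fstl1, a secreted follistatin-like glycoprotein (r = 0.94). Fbn1, which encodes the fibrillin scaffold of elastic fibers, was the third most like Eln (r = 0.90). Aebp1, which encodes a collagen-binding matrix protein, was most like Postn (r = 0.96), and Mcam, an adhesion molecule of vessels and muscle, was most like Ccn2 (r = 0.90). For Tnc the nearest was Tmem43 (r = 0.96), for Lox Gm20400 (r = 0.84) and for Tgfb3 Tshz2 (r = 0.91). For Tgfb1 it was ENSMUSG00000120602, listed without a symbol (r = 0.87), followed by D030055H07Rik (r = 0.86).

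**Figure D4:**
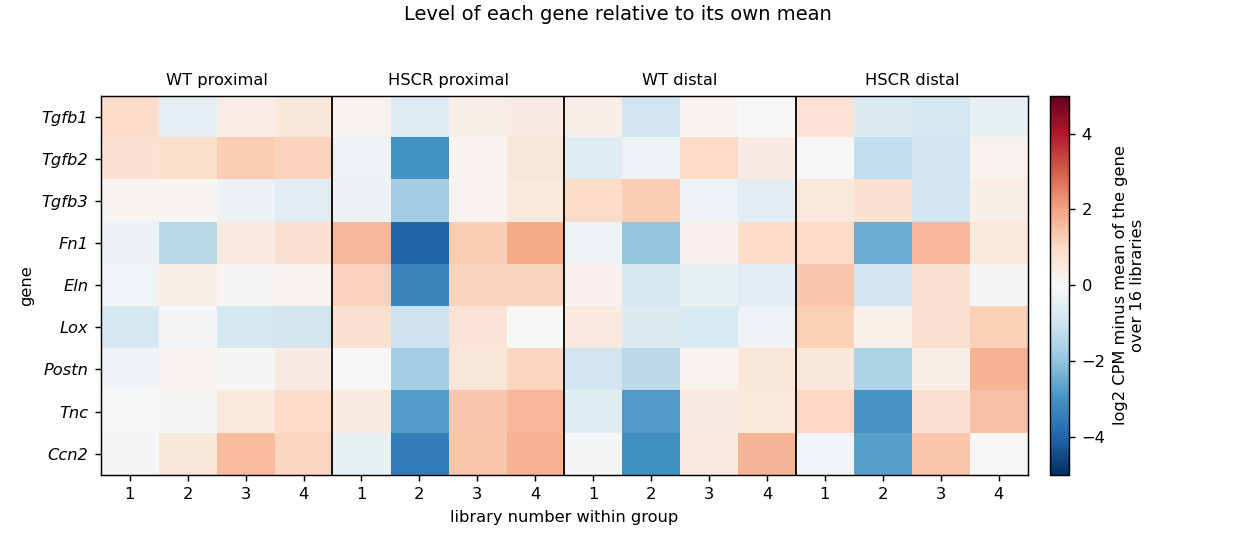
Log2 CPM of each gene (rows) in each library (columns, by group and library number) minus the mean of the gene over 16 libraries, with red above and blue below the mean. The columns of HSCR proximal library 2, WT distal library 2 and HSCR distal library 2 are blue for Fn1, Tnc and Ccn2, and the WT proximal columns are above the mean for Tgfb2.

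The rest of the pathway was read from 7 lists of 78 genes, of which 77 were tested in each segment. In the proximal colon 52 had a positive and 25 a negative log2 fold change. Of all genes tested, 53.2% had a positive one, which is the share to set beside the proximal counts of each list below. An adjusted p under 0.05 was held by 0 of the 77. At an unadjusted p under 0.05, 1 gene was higher and 2 were lower, against 6.62% of all genes. The list of latency and activation genes (11) held 9 positive and 2 negative values. Itgb8, the integrin chain that frees active TGF-beta, was among the lower ones, at 3.43 ± 2.39 CPM in HSCR and 9.68 ± 2.07 CPM in WT proximal colon (SD, n = 4), with a log2 fold change of -1.51 (adjusted p = 0.747 in edgeR). Its groups did not overlap, with at most 6.47 CPM in HSCR and at least 7.08 CPM in WT. The same held for 2.85% of all genes tested in that direction and 4.85% in either direction. Itgb6, the epithelial integrin chain, ranged from 0.429 to 20.8 CPM in HSCR and from 0.0 to 1.81 CPM in WT, so the groups overlapped. Of the epithelial markers, 12 of 12 had a positive log2 fold change, and their part in the level of Itgb6 was not tested.

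Receptors and Smads (8 genes) held 6 positive values in the proximal colon. Tgfbr2, the type II receptor, was at 146 ± 52.0 CPM in HSCR and 98.8 ± 20.1 CPM in WT proximal colon, and Smad2 was at 31.8 ± 5.74 and 39.0 ± 6.04 CPM. Among the feedback genes (11, with 8 positive), Smad7, the inhibitory Smad that TGF-beta itself induces, had a log2 fold change of 0.85 (adjusted p = 0.747 in edgeR) at 23.8 ± 10.2 CPM in HSCR and 13.0 ± 3.31 CPM in WT. Pmepa1, another induced inhibitor, went the other way at 124 ± 79.8 and 219.6 ± 66.7 CPM, with a log2 fold change of -0.84 (adjusted p = 0.763 in edgeR).

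TGF-beta induced genes (11 tested) held 8 positive values in the proximal colon, with Fap, a marker of activated fibroblasts, at 4.15 ± 3.42 CPM in HSCR and 0.820 ± 0.776 CPM in WT. Cdh2, N-cadherin, was at 24.5 ± 20.1 and 83.0 ± 45.7 CPM. Elastic fiber genes (11) held 6 positive values, with Mfap4, a microfibril protein, at 352 ± 175 and 194 ± 30.0 CPM and Efemp1, a fibulin, at 9.87 ± 4.74 and 15.1 ± 5.85 CPM. Cross-linking genes (11) held 5 positive values, and P4ha1, a collagen prolyl hydroxylase, had a log2 fold change of -0.92 (adjusted p = 0.747 in edgeR). Tgm2, a transglutaminase that cross-links matrix proteins, was at 286 ± 137 and 179 ± 49.0 CPM. Fibronectin receptors and matricellular genes (14) held 10 positive values, with Ccn3, a relative of Ccn2, at 22.0 ± 13.5 and 12.0 ± 2.29 CPM and Spp1, osteopontin, at 1.33 ± 0.741 and 2.36 ± 1.42 CPM.

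In the distal colon 47 of the 77 genes had a positive and 30 a negative log2 fold change. Of all genes tested, 53.9% had a positive one. An adjusted p under 0.05 was held by 0 of the 77. At an unadjusted p under 0.05, 1 gene was higher and 1 lower, against 2.64% of all genes. The higher one was Fbn2, a fibrillin, at 89.9 ± 127 CPM in HSCR and 14.8 ± 7.29 CPM in WT distal colon, with a log2 fold change of 2.58 (adjusted p = 1.00 in edgeR). Its HSCR values ranged from 11.9 to 278 CPM, so the groups overlapped. The lower one was Tnr, tenascin R, a matrix protein of nervous tissue, at 0.423 ± 0.656 CPM in HSCR and 6.58 ± 7.35 CPM in WT. Loxl2, a relative of Lox, was at 244 ± 175 and 110.2 ± 51.6 CPM, and Tgfbi, a matrix protein named for its induction by TGF-beta, at 449 ± 239 and 246 ± 65.3 CPM. Elastic fiber genes held 9 positive values of 11 and cross-linking genes 6 of 11.

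Other genes had the smallest p of their list and direction in the distal colon, none at an unadjusted p under 0.05. Among the latency genes, Ltbp2, of the latent TGF-beta binding protein family, was at 12.2 ± 5.96 CPM in HSCR and 6.27 ± 3.42 CPM in WT (SD, n = 4). Nrros, which anchors latent TGF-beta on myeloid cells, was at 3.33 ± 1.94 and 4.61 ± 2.78 CPM. Tgfbr2 was at 147 ± 75.6 and 110.5 ± 45.1 CPM, and Smad2 at 39.7 ± 4.05 and 49.1 ± 12.1 CPM. Tgif1, a Smad co-repressor, was at 35.0 ± 14.1 and 21.9 ± 5.67 CPM, and Smurf2, a ubiquitin ligase of the pathway, at 80.1 ± 20.7 and 96.0 ± 15.6 CPM. Cdh2 was at 14.5 ± 22.5 and 40.6 ± 34.3 CPM and Fbln1, a fibulin, at 167 ± 117 and 255 ± 96.6 CPM. P4ha1 was at 45.5 ± 20.8 and 61.3 ± 28.1 CPM, and Ccn3 at 22.0 ± 17.5 and 12.2 ± 1.35 CPM.

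Between the segments of the WT colon, 4 of the 77 genes were higher and 7 lower in the distal colon at an unadjusted p under 0.05, against 5.23% of all genes, and 0 passed adjustment. With the HSCR libraries, 1 of 76 was higher and 0 were lower, against 1.49%.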

How the data were processed

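Poly(A) RNA-seq libraries of mouse LMMP were analyzed from 1 table of 16 libraries. The authors used HISAT2 2.2.1 (mm39) for alignment and featureCounts 2.0.6 with a GENCODE model for gene counts. The deposited counts are whole numbers without normalization. The deposited FPKM values are counts per gene length and library size as the authors computed them. The authors' fold changes and p-values were not used. Whether counting used strand is not given in the sources used here. Titles gave the segments, since the tissue tag of the distal samples names the proximal colon.

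Each comparison of 4 against 4 libraries was fitted with edgeR 4.0.16 (filterByExpr, TMM, quasi-likelihood test) over all genes, and the interaction over 16 libraries, with Benjamini-Hochberg adjustment and a threshold of 0.05. Single genes were compared by exact two-sided permutation tests of log2 CPM with a prior count of 0.5. Alternatives used DESeq2 1.42.0, limma 3.58.1 (voom), RUVr with 4 factors, DESeq2 size factors, no filter, the replicate number or a split of numbers 1 and 2 against 3 and 4 as a term, all 16 libraries in 1 fit, and fewer libraries. R 4.3.3 and Python 3.11.15 were used, and the fits were tested on simulated data. Totals ran from 21384372 to 45831881 counts, and the biological coefficient of variation was 0.715 in the proximal and 0.737 in the distal comparison. The 9 genes and all lists were chosen with earlier results of these data known. Of each list, the gene with the smallest p in each direction was named for each genotype comparison, and for each of the 9 genes the tested gene or genes with the highest Pearson r. No libraries were identical (0 pairs).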

Additional observations from a re-analysis of the deposited data

Results flagged for a closer look

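Of 40 groups of 4 libraries (the 9 genes and Ednrb in each group), 3 held a library far from the other 3, where chance gives about 1 in 20 groups. Eln in HSCR proximal library 2 was at 119 CPM, against 2464 to 2555 CPM in the other HSCR proximal libraries. Lox in WT proximal library 2 was at 64.6 CPM, against 37.5 to 39.7 CPM in the other WT proximal libraries. Ednrb in the library labelled HSCR distal 1 was at 96.9 CPM, against 5.55 to 9.56 CPM in the other HSCR distal libraries. The part of cell composition in these values was not tested.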

How the results depend on the processing

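No cause of a change below was tested. In the proximal comparison 138 of 162 alternative values of single genes kept their direction and their side of the threshold, in the distal comparison 144 of 153 and between WT segments 146 of 153. Against 0 genes called in the proximal colon, DESeq2 called 244, RUVr with 4 factors 3563, limma-voom 4 and the fit with a term for numbers 1 and 2 against 3 and 4 called 4. In the distal colon (0 called) DESeq2 called 50 and RUVr 1644. Between WT segments (3 called) DESeq2 called 73, RUVr 3277, the replicate block 1, and the fit of all 16 libraries and the one without the libraries numbered 2 called 0 each. Between HSCR segments (0 called) DESeq2 called 4 and RUVr 431, and for the interaction (0 called) they called 9 and 308. Of the 9 genes, RUVr called 3 in the proximal, 3 in the distal and 3 in the WT segment comparison, and every other alternative 0.

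Signs of the proximal log2 fold changes turned for Eln (-0.013), Postn (-0.13) and Tnc (-0.20) under RUVr. Tgfb3 turned to 0.39 with limma-voom, 0.0075 without a filter and 0.00279 with all 16 libraries in 1 fit, and Postn to -0.024 with that term. Without the libraries numbered 2, Tgfb3 was at 0.37 and Ccn2 at 0.15, and the Lox interaction was at -0.21. Without HSCR proximal libraries 1 and 2, Tgfb3 was at 0.49 and Ccn2 at 0.66. These last settings, without all libraries numbered 2 and without HSCR proximal libraries 1 and 2, were chosen after seeing the data.

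In mean log2 CPM, the proximal difference turned with CPM of all counted reads for Tgfb3 (0.071), Eln (0.19), Postn (0.13) and Tnc (0.081). Within replicates 3 and 4 it turned for Tgfb3 (0.77), Eln (1.01), Postn (0.58), Tnc (0.77) and Ccn2 (0.23), and within replicates 1 and 2 for Fn1 (-0.36). In the distal colon Tgfb1 (0.37) and Ccn2 (0.16) turned within replicates 1 and 2, and Tgfb3 (0.082) within replicates 3 and 4.

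Leaving out 1 library at a time gave 0 to 2 genes called between WT segments and 0 in the other comparisons. Proximal values ranged from -0.31 to 0.29 for Tgfb3, from -0.24 to 0.48 for Postn and from -0.73 to 0.23 for Ccn2, with the highest without HSCR library 2 and the lowest without HSCR library 4. Distal values ranged from -0.61 to 0.052 for Tgfb1, from -0.47 to 0.062 for Tgfb3 and from -1.07 to 0.46 for Ccn2. Fn1 between WT segments ranged from -0.54 to 0.28, and the Lox interaction from -0.027 to 0.56.

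Replicate numbers are shared between groups without a stated pairing. Correlations of same-numbered libraries were between -0.12 and 0.24 in the proximal, -0.21 and 0.41 in the distal, 0.10 (0.0997) and 0.44 in the WT segment and 0.00064 and 0.36 in the HSCR segment comparison, so not every pair was over 0.1, with the WT segments missing it by 1 value only. A library correlated best with its own number in 1, 1, 3 and 2 of 4 cases, a hint from the data. The table names libraries 1 and 2 of both segments and both genotypes with shared numbers. WT proximal libraries 3 and 4 carry a different kind of name from WT distal libraries 3 and 4. Segment and kind of name cannot be told apart for those. With the replicate block, Postn (-0.11) and Tnc (-0.065) turned in the proximal colon, and 0 of the 9 genes were called in any comparison.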
